A study of Mus musculus with 8 samples.

Results

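Transcripts of 9 genes for glucose uptake and glycogen turnover were followed through the estrous cycle of the mouse uterus. The genes were taken by symbol from the deposited count table: the sodium-coupled transporter gene Slc5a1, the facilitative transporter genes Slc2a1, Slc2a3 and Slc2a4, the glycogen synthesis genes Gyg, Gys1 and Gbe1, and the glycogen phosphorylase genes Pygl and Pygb. All 9 were present among the 52308 genes of the table, and all 9 had enough counts to be among the 18114 tested. Uteri came from untreated female ICR mice, an outbred stock, aged 6 to 8 weeks. The cell types in a vaginal smear set the stage as proestrus, estrus, metestrus or diestrus, and each stage has 2 libraries of polyadenylated RNA. Whether both libraries of a stage are from different animals is not stated in the labels, so p-values rest on the spread among these 8 libraries alone, and that spread may be technical. Whole uterus was used, and in such bulk samples fewer cells of a type and less RNA per cell cannot be told apart.

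Glucose enters cells through SLC2A (GLUT) proteins, which let it pass down its gradient, or through SGLT proteins such as SLC5A1, which move it together with sodium. Inside the cell it is phosphorylated and either burned or stored as glycogen, a branched polymer that starts on the protein glycogenin (Gyg), is lengthened by glycogen synthase (Gys1 outside the liver) and is branched by Gbe1. Glycogen phosphorylase, encoded by Pygl, Pygb and Pygm after the liver, brain and muscle forms, releases glucose units from it. The uterus is known to store glycogen in its epithelium and muscle and to secrete glucose into its lumen, where an early embryo can use it.

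The promoter windows of 3 genes that fell together from estrus to metestrus, Slc5a1, Gyg and Pygl, are shown so that their sequence can be read beside their levels. Each window runs from 250 bases before to 50 bases after the start site (RefSeq, GRCm38.p6), 5′ to 3′ along the gene, on the plus strand of the chromosome for Slc5a1 and on the minus strand for Gyg and Pygl. Capitals mark CACGTG, the E-box hexamer, and GGTCA or its complement TGACC, the half-site of an estrogen response element.
Slc5a1, chr5:33103969-33104268: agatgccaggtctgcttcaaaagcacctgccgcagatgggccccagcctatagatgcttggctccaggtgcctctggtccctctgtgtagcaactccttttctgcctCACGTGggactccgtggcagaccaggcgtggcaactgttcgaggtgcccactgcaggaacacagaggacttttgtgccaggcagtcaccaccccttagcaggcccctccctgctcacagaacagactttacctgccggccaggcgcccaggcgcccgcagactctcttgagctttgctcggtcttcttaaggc
Gyg, chr3:20155067-20155366: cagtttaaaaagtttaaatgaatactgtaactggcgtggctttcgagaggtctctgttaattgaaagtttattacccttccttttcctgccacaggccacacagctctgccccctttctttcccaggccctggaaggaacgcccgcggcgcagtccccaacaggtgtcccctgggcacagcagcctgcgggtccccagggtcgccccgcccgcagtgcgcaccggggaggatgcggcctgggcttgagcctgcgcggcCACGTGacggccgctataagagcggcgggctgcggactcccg
Pygl, chr12:70227634-70227933: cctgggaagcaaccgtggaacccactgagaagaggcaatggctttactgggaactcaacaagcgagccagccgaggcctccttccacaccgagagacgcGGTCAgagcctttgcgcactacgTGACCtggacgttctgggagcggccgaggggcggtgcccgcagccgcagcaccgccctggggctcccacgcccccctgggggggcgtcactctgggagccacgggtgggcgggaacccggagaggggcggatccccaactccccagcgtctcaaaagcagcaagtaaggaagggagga
Of the 9 genes, 7 had an entry in the RefSeq table of promoters, and Slc2a3 and Slc2a4 had none. The window of Pygl lies wholly inside its annotated gene, 70190811 to 70231488 on chromosome 12, so its start site is not the outermost. That of Gyg lies partly inside its gene, which ends at 20155317 on chromosome 3, and its start site is not the outermost either. CACGTG was found at position -143 in Slc5a1 and at position 8 in Gyg, counted from the first base of the transcript as position 0,, and none of the other 5 windows held it. It occurs in 7.15% of 32851 windows of the same length. GGTCA, searched on both strands, occurs in 40.5% of windows and was found in those of Pygl, Slc2a1 and Gbe1. In Pygl it lay at positions -151 and -128. These are matches of letters, not measured binding sites.

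Of the 9 genes, 5 changed across the 4 stages, at an adjusted p under 0.05, beside 39.1% of all tested genes: Slc5a1, Slc2a3, Slc2a4, Gyg and Pygl. Slc5a1, Slc2a4, Gyg and Pygl had their highest mean in estrus and their lowest in metestrus, while Slc2a3 was highest in diestrus. Slc2a1, Gys1, Gbe1 and Pygb did not pass the test (adjusted p from 0.170 to 0.626). Levels are in CPM, the count scaled to the TMM-adjusted library total, as the mean ± SD of 2 libraries. Changes are log2 fold changes ± SE from 1 edgeR quasi-likelihood fit to all 8 libraries, and each adjusted p is by that fit with Benjamini-Hochberg adjustment over all tested genes. Without estrus library 1 or 2 or metestrus library 1 or 2, 3 of the 9 genes passed, since Slc2a3 and Pygl did not. The share of all tested genes called also fell in these fits, to between 15.6% and 18.4%.

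**Figure D1:**
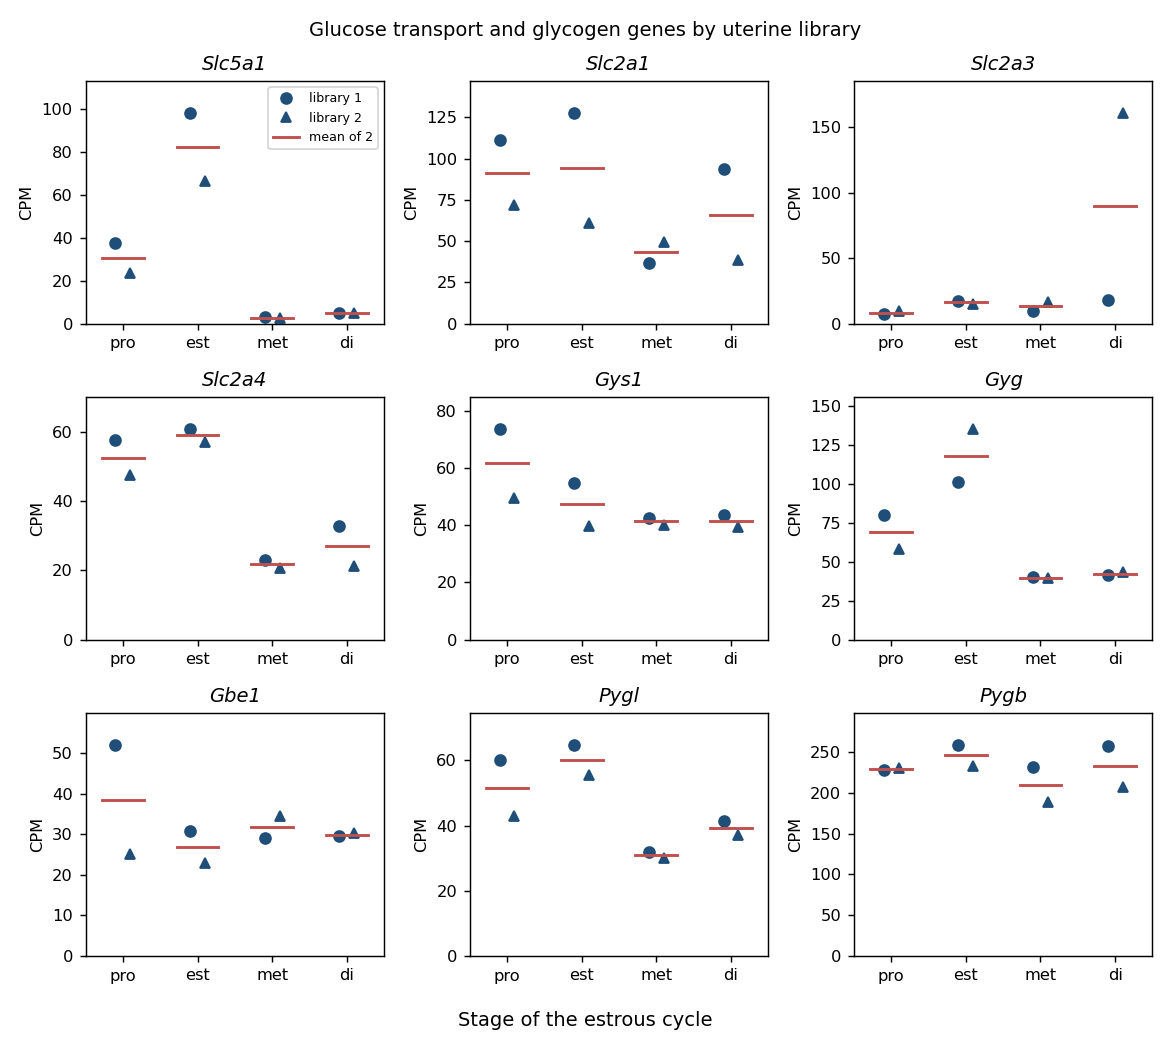
Level of each of the 9 genes in CPM (vertical axes, from 0, scaled per gene) in the 2 libraries of proestrus (pro), estrus (est), metestrus (met) and diestrus (di), with circles for library 1, triangles for library 2 and red lines for the mean of 2. Slc5a1 reaches 98.4 CPM in estrus library 1 and drops to 2.48 CPM in metestrus library 2, while Slc2a3 reaches 161 CPM in diestrus library 2 alone.

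Slc5a1, which encodes the sodium-glucose cotransporter SGLT1 known from the apical membrane of absorptive epithelia, had the widest range of stage means among the 9 genes, 29.9-fold between the highest and the lowest. Its gene lies on the plus strand of chromosome 5, from 33104219 to 33162870 (ENSMUSG00000011034, protein coding, GRCm38). The libraries held 37.4 and 23.5 CPM in proestrus, 98.4 and 66.5 CPM in estrus, 3.04 and 2.48 CPM in metestrus, and 4.90 and 4.84 CPM in diestrus. No 2 stages overlapped in their libraries. Behind the lowest of these values were 58 counts and behind the highest 1967. Slc5a1 rose from proestrus to estrus by 1.44 ± 0.27, a 2.71-fold rise (adjusted p = 0.0206). This call ended without proestrus library 2 (adjusted p = 0.0956), estrus library 1 (0.114) or estrus library 2 (0.0541). From estrus to metestrus Slc5a1 fell by 4.90 ± 0.32, or 29.8-fold (adjusted p = 0.000863), and this call held in all 14 alternatives (adjusted p up to 0.0180). The step from metestrus to diestrus, 0.82 ± 0.30, did not pass (adjusted p = 0.241). Against diestrus, proestrus stood 2.64 ± 0.29 higher (adjusted p = 0.00286) and estrus 4.08 ± 0.31 higher (adjusted p = 0.00121). Metestrus was lower than proestrus, at -3.46 ± 0.31 (adjusted p = 0.00331, and 0.0552 without metestrus library 2).

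Markers of epithelium fell at the same step as Slc5a1. The 10 epithelial marker genes, among them the keratin gene Krt8 and the adhesion gene Epcam, summed to 6377 and 5520 CPM in proestrus, 4820 and 4350 CPM in estrus, 1455 and 1372 CPM in metestrus, and 1050 and 1435 CPM in diestrus. Of the 10, 8 fell from estrus to metestrus and none rose, with a median log2 fold change of -1.57 beside -0.05 over all tested genes. Per 1000 CPM of these markers, Slc5a1 had 20.4 and 15.3 CPM in the estrus libraries and 2.09 and 1.81 CPM in the metestrus libraries, so the libraries of the stages stayed apart on this scale too. Proestrus libraries had 5.86 and 4.25 CPM of Slc5a1 per 1000 and diestrus libraries 4.67 and 3.37 CPM, which overlap. The ratio is not a measure of epithelial content, since the markers did not move together. Of the 10, 1 was called higher and 1 lower in estrus than in proestrus. Krt7 went from 1004 and 997 CPM in proestrus to 372 and 338 CPM in estrus, and Muc1 from 374 and 439 CPM to 604 and 777 CPM. The part of epithelial content in the levels of the 9 genes was not tested. The 7 macrophage markers moved too. They summed to 928 and 527 CPM in proestrus, 1715 and 1601 CPM in estrus, 391 and 352 CPM in metestrus, and 335 and 435 CPM in diestrus, and all 7 fell from estrus to metestrus. Their part was not tested.

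**Figure D2:**
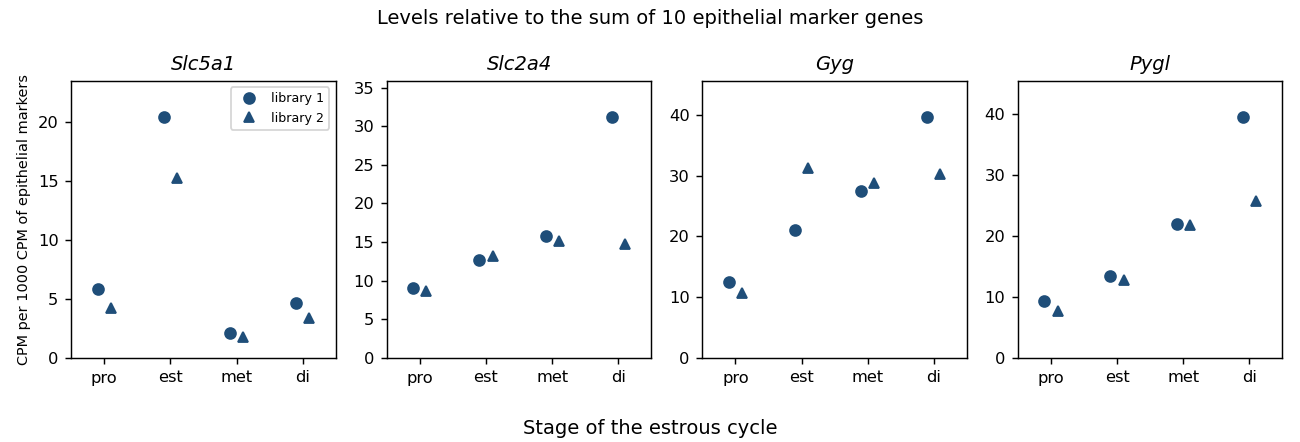
Level of Slc5a1, Slc2a4, Gyg and Pygl as CPM per 1000 CPM of 10 summed epithelial markers (vertical axes, from 0, scaled per gene) in each library of proestrus (pro), estrus (est), metestrus (met) and diestrus (di), circles for library 1 and triangles for library 2. Slc5a1 drops from 20.4 and 15.3 in estrus to 2.09 and 1.81 in metestrus, whereas Pygl goes from 13.4 and 12.8 to 22.0 and 21.9.

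Among the facilitative transporters, Slc2a4 fell from estrus to metestrus, Slc2a3 was high in a single diestrus library, and Slc2a1 passed the test in no pair of stages. Slc2a4 encodes GLUT4, the transporter that insulin brings to the surface of muscle and fat cells (ENSMUSG00000018566, minus strand of chromosome 11, 69942539 to 69948188). Its libraries held 57.6 and 47.5 CPM in proestrus, 60.9 and 57.1 CPM in estrus, 22.9 and 20.7 CPM in metestrus, and 32.7 and 21.2 CPM in diestrus. Both libraries of proestrus and of estrus lay above all 4 of metestrus and diestrus, while proestrus overlapped estrus and metestrus overlapped diestrus. Slc2a4 fell from estrus to metestrus by 1.44 ± 0.22, or 2.71-fold (adjusted p = 0.00474), a call that held in all 14 alternatives. Metestrus was also lower than proestrus (-1.27 ± 0.22, adjusted p = 0.0136). That call ended without proestrus library 1 (adjusted p = 0.0879) or metestrus library 1 (0.0807) or 2 (0.109). Diestrus was lower than estrus by 1.13 ± 0.22 and than proestrus by 0.96 ± 0.21 (adjusted p = 0.0136 and 0.0232). The former ended without estrus library 1 (0.0746) or 2 (0.0600) and the latter without proestrus library 1 (0.133). Fitted on the 4 libraries of each pair alone they had adjusted p = 0.0557 and 0.102.

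Markers of fat and skeletal muscle, tissues rich in GLUT4, were uneven among the libraries. The adipocyte marker Adipoq had 2.26 CPM in proestrus library 1 and 4.88 CPM in metestrus library 2, with 2 counts or fewer elsewhere and 0 counts in proestrus library 2, metestrus library 1 and both diestrus libraries. The 8 adipocyte markers summed to 61.5 and 28.5 CPM in proestrus, 45.4 and 33.0 CPM in estrus, 14.0 and 48.9 CPM in metestrus, and 25.7 and 18.1 CPM in diestrus. Lipe alone held 30.5 and 25.3 CPM of these sums in proestrus and 40.1 and 29.7 CPM in estrus. It held 13.2 and 13.3 CPM in metestrus and 22.0 and 17.0 CPM in diestrus. Of the libraries with Adipoq, proestrus library 1 had more Slc2a4 than library 2 (57.6 against 47.5 CPM) and metestrus library 2 less than library 1 (20.7 against 22.9 CPM). The skeletal muscle myosin genes Myh1 and Myh4 had 56 and 126 counts in metestrus library 2 and 0 counts in the other 7 libraries, whereas the troponin gene Tnni2 was highest in diestrus library 1, at 93.1 CPM. All 8 skeletal muscle markers summed to 320 and 222 CPM in proestrus, 132 and 142 CPM in estrus, 289 and 294 CPM in metestrus, and 365 and 260 CPM in diestrus. The part of fat and skeletal muscle in the level of Slc2a4 was not tested. Per 1000 CPM of epithelial markers, the estrus libraries had 12.6 and 13.1 CPM of Slc2a4 and the metestrus libraries 15.7 and 15.1 CPM.

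Slc2a3 encodes GLUT3, a transporter of high affinity known from neurons and placenta (ENSMUSG00000003153, minus strand of chromosome 6, 122727809 to 122801640). It held 7.18 and 9.68 CPM in proestrus, 17.4 and 14.9 CPM in estrus, 9.69 and 16.6 CPM in metestrus, and 18.2 and 161 CPM in diestrus. The high value came from 3191 counts in diestrus library 2 against 404 in library 1, so its diestrus mean of 89.5 ± 101 CPM describes neither library. Slc2a3 passed the test across the stages (adjusted p = 0.0445) and was higher in diestrus than in proestrus (proestrus minus diestrus -3.41 ± 0.93, adjusted p = 0.0419). Without diestrus library 2 these gave adjusted p = 0.0846 and 0.0594, and the latter difference shrank to -1.10. Leaving out either library of proestrus, estrus or metestrus also ended both calls (adjusted p from 0.0753 to 0.205), as did the fit with the replicate number as a block (0.0709 and 0.0512). The step from metestrus to diestrus, 2.77 ± 0.89, did not pass (adjusted p = 0.204) and passed without diestrus library 1 (0.0106). Neutrophil markers, from cells that also express Slc2a3, summed to 13.9 and 46.9 CPM in the diestrus libraries, and to more in estrus, at 95.6 and 117 CPM. Most of each estrus sum was the single marker Retnlg, at 75.3 and 110 CPM, which held 11.9 and 35.0 CPM in diestrus. In the diestrus libraries endothelial markers summed to 786 and 576 CPM, and smooth muscle markers to 18252 and 7365 CPM. The part of these cells in the level of Slc2a3 was not tested.

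Slc2a1 encodes GLUT1, the widely expressed basal transporter (ENSMUSG00000028645, plus strand of chromosome 4, 119108711 to 119137983). Its libraries held 112 and 71.7 CPM in proestrus, 128 and 61.1 CPM in estrus, 36.9 and 49.4 CPM in metestrus, and 93.8 and 38.4 CPM in diestrus. Metestrus lay below proestrus and below estrus in both libraries, and the diestrus libraries overlapped those of every other stage. No pair of stages passed the test in the fit to all libraries. The difference between metestrus and estrus, -1.13 ± 0.51, had an adjusted p = 0.127, and passed by DESeq2 (0.0464) and with only the 4 libraries of the pair (0.0491). The difference between metestrus and proestrus, -1.09 ± 0.51 (adjusted p = 0.183), passed with only the 4 libraries of the pair (0.0285). Slc2a1 shares 105 exonic bases with the antisense gene Gm12868, which had at most 6 counts in a library. The strand setting of the authors' counting is not given in the sources used here, so reads of the shared bases cannot be assigned to either gene with certainty.

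Compared per kilobase of exon, Slc2a1 was the most abundant of these 3 transporters in 7 of 8 libraries. It made up 48.5% to 69.2% of their summed CPM per kilobase in those libraries and 27.9% in diestrus library 2, where Slc2a3 made up 56.6%. Elsewhere Slc2a3 made up 2.01% to 10.2%. Slc2a4 made up 15.5% to 45.7%. The summed level was lowest in metestrus, at 18.5 and 22.3 CPM per kilobase. Both diestrus libraries had about the same sum on this scale, 38.7 and 39.3, with different members behind it. Without division by exon length the diestrus sums were 145 and 221 CPM, so this likeness depends on the exon lengths used.

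**Figure D3:**
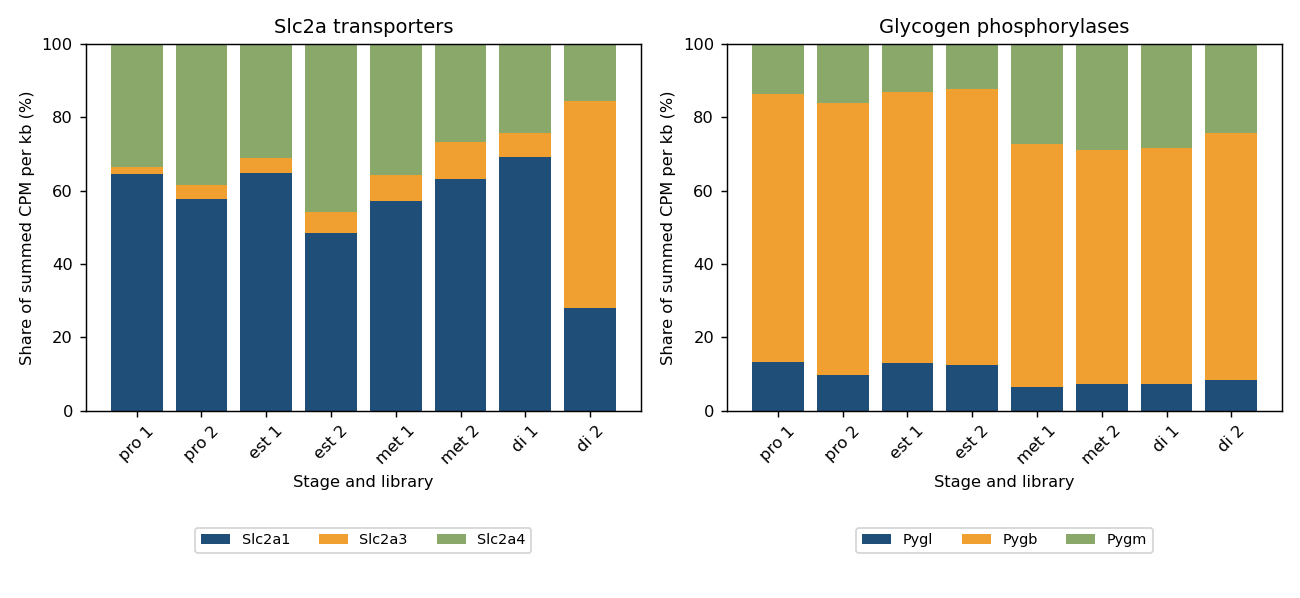
Share in percent of the summed CPM per kilobase of exon (vertical axes, 0 to 100) taken by Slc2a1, Slc2a3 and Slc2a4 (left) and by Pygl, Pygb and Pygm (right) in each library of proestrus (pro), estrus (est), metestrus (met) and diestrus (di). Slc2a3 takes 56.6% in diestrus library 2 and at most 10.2% elsewhere, and Pygm takes 24.4% to 28.9% in metestrus and diestrus and 12.2% to 16.2% in proestrus and estrus.

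Of the glycogen synthesis genes, Gyg followed the cycle and Gys1 and Gbe1 did not pass the test. Gyg encodes glycogenin, the primer on which a glycogen particle starts (ENSMUSG00000019528, minus strand of chromosome 3, 20122084 to 20155317). Its libraries held 79.9 and 58.6 CPM in proestrus, 101 and 136 CPM in estrus, 40.0 and 39.5 CPM in metestrus, and 41.6 and 43.5 CPM in diestrus. No 2 stages overlapped, although the 4 libraries of metestrus and diestrus lay between 39.5 and 43.5 CPM. Gyg fell from estrus to metestrus by 1.57 ± 0.19, or 2.98-fold (adjusted p = 0.00297), and the excess of estrus over diestrus was 1.48 ± 0.19 (adjusted p = 0.00436). Both calls held in all 14 alternatives. It also rose from proestrus to estrus (0.77 ± 0.19, adjusted p = 0.0414). Proestrus was above diestrus (0.70 ± 0.19, adjusted p = 0.0424) and metestrus below proestrus (-0.80 ± 0.19, adjusted p = 0.0352). With the replicate number as a block the rise to estrus and the excess of proestrus over diestrus had adjusted p = 0.0563 and 0.0606, and with only the 4 libraries of the pair 0.0625 and 0.103. The rise to estrus was lost when either library of proestrus, estrus or metestrus was left out (adjusted p from 0.0632 to 0.200). The difference between proestrus and diestrus ended without proestrus library 1 or any 1 library of metestrus or diestrus (adjusted p from 0.0710 to 0.227). The difference between metestrus and proestrus ended without proestrus library 1 or any 1 library of metestrus (adjusted p from 0.162 to 0.195). Per 1000 CPM of epithelial markers, Gyg stood at 20.97 and 31.2 CPM in estrus, a range that holds the 27.5 and 28.8 CPM of metestrus.

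Gys1, the glycogen synthase of muscle and most other tissues (ENSMUSG00000003865, plus strand of chromosome 7, 45434844 to 45456619), held 73.7 and 49.6 CPM in proestrus, 54.9 and 39.6 CPM in estrus, 42.6 and 40.2 CPM in metestrus, and 43.7 and 39.5 CPM in diestrus. Proestrus library 1 had the highest level, and the stages did not pass the test (adjusted p = 0.170, and 0.0708 to 0.658 over 13 alternatives). Gys1 shares 310 exonic bases with Ruvbl2 on the opposite strand. Ruvbl2 was highest in metestrus, at 96.8 and 97.1 CPM, and lowest in estrus, at 42.8 and 46.9 CPM, an order of stages unlike that of Gys1. Gbe1, the branching enzyme (ENSMUSG00000022707, plus strand of chromosome 16, 70313949 to 70569716), held 52.0 and 25.1 CPM in proestrus, 30.7 and 22.8 CPM in estrus, 29.1 and 34.5 CPM in metestrus, and 29.5 and 30.2 CPM in diestrus. Apart from proestrus library 1 its 7 libraries lay between 22.8 and 34.5 CPM (adjusted p = 0.546 across the stages). Proestrus library 1 had the higher level of the 2 proestrus libraries for 7 of the 9 genes.

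The phosphorylase genes parted: Pygl was lower in metestrus than in estrus or proestrus, and Pygb, the more abundant of the pair, passed in no pair of stages. Pygl, the liver form (ENSMUSG00000021069, minus strand of chromosome 12, 70190811 to 70231488), held 60.0 and 42.9 CPM in proestrus, 64.7 and 55.5 CPM in estrus, 32.0 and 30.03 CPM in metestrus, and 41.5 and 37.0 CPM in diestrus. Both metestrus libraries lay below the other 6. Pygl fell from estrus to metestrus by 0.96 ± 0.18, or 1.94-fold (adjusted p = 0.00932). The call ended without estrus library 1 (adjusted p = 0.0645) or metestrus library 1 (0.0538) or 2 (0.0717). Metestrus was lower than proestrus at -0.73 ± 0.18 (adjusted p = 0.0378), which was lost without proestrus library 1 and without either library of estrus or metestrus (0.0656 to 0.203). Estrus was higher than diestrus by 0.61 ± 0.18 (adjusted p = 0.0494). This ended with DESeq2 size factors (0.0525), with only the 4 libraries of the pair (0.0737) and without any 1 library of estrus, metestrus or diestrus (0.0607 to 0.221). Per 1000 CPM of epithelial markers, Pygl stood at 13.4 and 12.8 CPM in estrus and 22.0 and 21.9 CPM in metestrus. Liver markers also fell from estrus to metestrus, all 6 of them, from summed levels of 798 and 608 CPM to 0.179 and 0.599 CPM, and their part in the level of Pygl was not tested.

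Pygb, the brain form (ENSMUSG00000033059, plus strand of chromosome 2, 150786735 to 150831758), held 229 and 231 CPM in proestrus, 259 and 233 CPM in estrus, 232 and 188 CPM in metestrus, and 258 and 208 CPM in diestrus. Its highest stage mean was 1.17-fold its lowest, and the largest difference, metestrus minus estrus, was -0.23 ± 0.16 (adjusted p = 0.295). Pygm, the muscle form and not one of the 9, is given here because it moved against Pygl. It held 28.5 and 33.8 CPM in proestrus, 30.6 and 25.2 CPM in estrus, 64.1 and 56.9 CPM in metestrus, and 76.1 and 50.3 CPM in diestrus, and rose after estrus by 1.12 ± 0.22 (adjusted p = 0.0107). Its test across the stages gave adjusted p = 0.0122, and 0.0518 without estrus library 2. The summed skeletal muscle markers were also lower in both estrus libraries (132 and 142 CPM) than in those of metestrus (289 and 294 CPM). They came to 365 and 260 CPM in diestrus, and to 320 and 222 CPM in proestrus, where the Pygm libraries overlapped those of estrus. Most of each sum was Acta1, at 102 and 121 CPM in estrus and 232 and 251 CPM in metestrus. Of the 5 skeletal muscle markers tested, 1 was called at this step, higher in metestrus, and 4 were not called. Ckm went the other way, from 6.10 and 5.99 CPM in estrus to 4.11 and 2.31 CPM in metestrus. The part of skeletal muscle in the level of Pygm was not tested. Per kilobase, Pygb made up 64.0% to 75.3% of the 3 phosphorylases in every library. Pygl made up 9.60% to 13.4% in proestrus and estrus and 6.36% to 8.37% in metestrus and diestrus, and Pygm 12.2% to 16.2% and 24.4% to 28.9%.

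Step by step, the 9 genes gave 2, 4, 0 and 4 calls from proestrus through to the next proestrus. From proestrus to estrus 2 rose (Slc5a1 and Gyg) and none fell, beside 15.1% of all tested genes called, 8.12% higher and 6.94% lower. With the replicate number as a block 1 rose. With it 16.6% of all tested genes were called. Without proestrus library 1 or either metestrus library 1 rose, beside 3.83% to 6.78% of all tested genes called, and without proestrus library 2 or either estrus library none did in edgeR, beside 2.18% to 2.5%, against 2 by DESeq2 on the full set and 2 whose unadjusted p was under 0.05. From estrus to metestrus 4 fell (Slc5a1, Slc2a4, Gyg and Pygl) and none rose, beside 36.2% of all tested genes called, 16.7% higher and 19.5% lower, with a median log2 fold change of -0.96 over the 9 and -0.05 over all tested genes. From metestrus to diestrus none of the 9 passed in edgeR or DESeq2, 2 had an unadjusted p under 0.05, and 0.508% of all tested genes were called, 0.282% higher and 0.226% lower in diestrus. Without diestrus library 1, 1 passed (Slc2a3).

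From diestrus to proestrus 3 of the 9 rose (Slc5a1, Slc2a4 and Gyg), and Slc2a3 fell, beside 22.4% of all tested genes called, 12% higher and 10.4% lower. These 4 calls numbered 2 with the replicate number as a block, 1 with only the 4 libraries of the pair, 1 without proestrus library 1, and 2 without metestrus library 1, metestrus library 2 or diestrus library 2. All tested genes called in these fits made up 22.6% with the block, 6.62% with the 4 libraries, 6.11% without proestrus library 1, 13.7% without either metestrus library and 24.5% without diestrus library 2. In the pairs of stages that do not follow each other, 4 were higher in estrus than in diestrus (Slc5a1, Slc2a4, Gyg and Pygl), beside 23.8% of all tested genes called, 13.9% higher and 9.97% lower. In metestrus against proestrus Slc5a1, Slc2a4, Gyg and Pygl were lower, 4 of the 9, beside 16.9% called, 6.68% higher and 10.3% lower. The former numbered 2 without estrus library 1 or 2 and when the pair's 4 libraries were fitted alone. In those fits 7.07%, 8.69% and 11.1% of all tested genes were called. The latter numbered 1 without proestrus library 1 or metestrus library 1, where 2.5% and 1.64% of all tested genes were called. Without metestrus library 2 edgeR called none of the 9 and 0.0843% of all tested genes, against 4 by DESeq2 on the full set and 5 whose unadjusted p was under 0.05. Each stage enters 3 of the 6 pairs, so these counts share libraries.

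**Figure D4:**
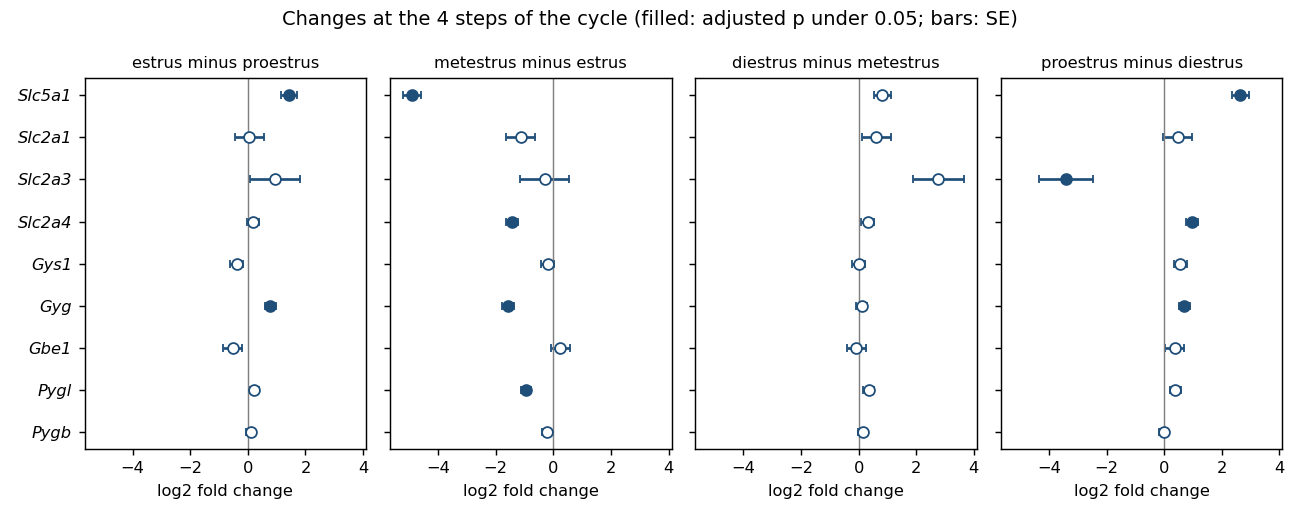
Log2 fold change (horizontal axes) with SE bars of each of the 9 genes at the 4 steps of the cycle, from the fit to all 8 libraries. Filled points have an adjusted p under 0.05. Slc5a1 falls by 4.90 from estrus to metestrus, and from metestrus to diestrus no point is filled.

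The order of the 9 genes by level, in CPM per kilobase of exon, shifted with these changes. Pygb ranked first by mean in every stage, from 43.8 ± 6.46 CPM per kilobase in metestrus to 51.2 ± 3.80 in estrus. In estrus Gyg stood beside it at 50.5 ± 10.4, and the libraries of these 2 genes overlapped. In metestrus Gyg was at 17.0 ± 0.169 and did not overlap its neighbours in the order. Slc5a1 ranked the fourth in estrus, at 20.1 ± 5.50 CPM per kilobase, where its libraries overlapped those of Slc2a1 above (27.0 ± 13.5) and Slc2a4 below (17.0 ± 0.769). It ranked last in metestrus, at 0.672 ± 0.0955, and in diestrus, at 1.19 ± 0.0107, with no overlap with the next gene up. In proestrus Pygl, Slc5a1 and Gbe1, between 7.20 and 7.47 CPM per kilobase, did not differ beyond their spread, and Slc2a3 was last at 1.16 ± 0.244. Exon lengths are the union of all exons in the annotation, from 2344 bases for Gyg to 7245 bases for Slc2a3, and need not be the length of the transcript made in the uterus.

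The genes whose pattern over the 8 libraries came closest to each changed gene were found by the root mean square difference of log2 CPM, each centred on its own mean, among 11764 genes with a mean of 5 CPM or more. For Slc5a1 they were Galnt6, which starts O-linked glycans (0.23), Pglyrp1, a secreted peptidoglycan recognition protein (0.31), and Zc3h12a, an RNase that restrains inflammation (0.31). In estrus Galnt6 held 61.4 and 50.4 CPM, against 2.05 and 2.31 CPM for metestrus. For Gyg they were Tmem176a (0.11), Gmfg (0.13) and the myosin gene Myo1e (0.14). For Slc2a4 they were Cyba, a subunit of the NADPH oxidase of phagocytes (0.08), the lysosomal fucosidase gene Fuca1 (0.09) and the repressor gene Bcl6 (0.11). For Pygl they were the peptidase gene Npepps (0.08) and the kinase genes Tyk2 (0.08) and Taok3 (0.09). For Slc2a3 the differences were larger, with the junction gene Jam2 at 0.43, the sodium channel gene Scnn1a at 0.47 and the convertase gene Pcsk5 at 0.63. Jam2 had 88.1 and 314 CPM and Scnn1a 4.81 and 31.8 CPM in the diestrus libraries, a likeness that the choice by pattern sets. Genes that change little lie close to many others on this measure, so its values are not comparable between the 5 genes.

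The wider pathway was read from 8 lists of 95 genes, of which the 9 are part. Of the other 86, 78 were tested and 41 changed across the stages, beside 39.1% of all tested genes. From estrus to metestrus 23 fell and 11 rose, beside 19.5% and 16.7% of all tested genes, with a median log2 fold change of -0.32 beside -0.05 over all tested genes. From proestrus to estrus 5 rose and 5 fell, beside 8.12% and 6.94%, and from metestrus to diestrus none of the 78 passed in edgeR, though 20 had an unadjusted p below 0.05. The count of 41 dropped to between 18 and 26 when proestrus library 1, or either library of estrus or metestrus, was left out. The share of all tested genes dropped from 39.1% to between 15.6% and 21.6% in the same fits.

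Among other glucose transporters, both further SGLT family members that were tested changed, in opposite directions. Slc5a9, which encodes the sodium-coupled mannose and glucose transporter SGLT4, had means of 32.3 ± 12.9, 32.1 ± 8.41, 3.70 ± 0.699 and 1.69 ± 1.75 CPM from proestrus to diestrus. Its level fell between estrus and metestrus by 3.12 ± 0.69 (adjusted p = 0.0152). Slc5a11, a sodium-coupled transporter of myo-inositol, rose at that step by 3.78 ± 0.79 (adjusted p = 0.0132). It held 0.513 to 2.03 CPM in the libraries of proestrus and estrus, 13.3 and 12.6 CPM in metestrus, and 20.4 and 73.0 CPM in diestrus. Of 8 other Slc2a genes tested, 5 changed across the stages, beside 39.1% of all tested genes. Slc2a6, a transporter of the lysosome, was highest in estrus, with 16.2 ± 0.802, 41.5 ± 13.8, 6.34 ± 0.562 and 4.71 ± 1.25 CPM from proestrus to diestrus (-2.71 ± 0.29 from estrus to metestrus, adjusted p = 0.00214). Slc2a10, which encodes GLUT10, had its lowest mean in estrus, 3.42 ± 0.822 CPM, where the other stages had 14.7 to 18.5 CPM, and rose to metestrus by 2.43 ± 0.22 (adjusted p = 0.00155). Slc2a8 fell at the passage to metestrus by 1.04 ± 0.21 (adjusted p = 0.0116). Its call across the stages (adjusted p = 0.0297) ended in 5 leave-one-out fits (0.0733 to 0.121).

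Genes that feed, cut or regulate glycogen gave calls across the stages in 2 of 4 synthesis, 2 of 8 breakdown and 3 of 13 regulatory genes outside the 9, beside 39.1% of all tested genes. Pgm2, an interconverter of glucose phosphates, fell at the passage to metestrus by 0.93 ± 0.11 (adjusted p = 0.00277), from 87.6 ± 4.48 to 45.9 ± 3.15 CPM. Ugp2, which makes the UDP-glucose used by glycogen synthase, had a difference of -0.06 at that step. Ppp1r3b, the subunit that directs protein phosphatase 1 to glycogen and promotes its synthesis, was high in proestrus and estrus (42.7 ± 10.2 and 42.3 ± 5.49 CPM) and low in metestrus and diestrus (9.89 ± 0.660 and 7.50 ± 3.19 CPM). From estrus on it dropped by 2.10 ± 0.31 (adjusted p = 0.00456). Of 13 glycogen regulators tested, Ppp1r3b fell at that step and 2 rose, Nhlrc1, the ligase malin (0.89 ± 0.26, adjusted p = 0.0363), and Ppp1r3e (1.17 ± 0.31, adjusted p = 0.0257). Across the stages Nhlrc1 and Ppp1r3e passed narrowly (adjusted p = 0.0489 and 0.0439) and not with the replicate number as a block (0.0718 and 0.0509). Of 8 breakdown genes beside Pygl and Pygb, Pygm and Gaa changed across the stages. Gaa, the acid glucosidase of the lysosome, was higher in diestrus than in proestrus (proestrus minus diestrus -0.97 ± 0.21, adjusted p = 0.0202), and passed across the stages (adjusted p = 0.0289) but lost this when either library of proestrus, estrus or metestrus was left out (0.0679 to 0.0917).

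Downstream of uptake, many glycolysis genes stood higher in proestrus than they did in diestrus. Of 18 genes of glycolysis and lactate handling, 10 were higher in proestrus than in diestrus and 2 lower, beside 12% and 10.4% of all tested genes, with a median log2 fold change of 1.00 beside -0.01 over all tested genes. Ldha, the lactate dehydrogenase subunit of glycolytic tissues, went from 1202 ± 173 CPM in proestrus through 729 ± 83.3 and 618 ± 2.29 to 381 ± 89.9 in diestrus (adjusted p = 0.00657 across the stages). Ldhb, its counterpart of oxidative tissues, went the other way from proestrus to estrus, from 55.8 ± 2.17 to 205 ± 5.32 CPM (1.88 ± 0.16, adjusted p = 0.00294). Aldoc and Eno1 were 4.20 ± 0.32 and 1.45 ± 0.17 higher in proestrus than in diestrus (adjusted p = 0.00124 and 0.00326). The hexokinases, which trap glucose inside the cell, differed in direction. Hk2 fell after estrus, by 1.29 ± 0.33 (adjusted p = 0.0241). Hk1 was lower in estrus than in proestrus (-0.77 ± 0.14, adjusted p = 0.0177) and than in metestrus, to which it rose by 0.80 ± 0.14 (adjusted p = 0.00710). Slc37a4, which carries glucose 6-phosphate into the endoplasmic reticulum, was lower in proestrus than in diestrus (-0.77 ± 0.20, adjusted p = 0.0373). Its call across the stages (adjusted p = 0.0222) ended in 6 leave-one-out fits (0.0511 to 0.0787). Fbp2, the muscle fructose bisphosphatase, rose after estrus by 3.04 ± 0.72 (adjusted p = 0.0189), from 13 counts in both estrus libraries together to 127. Its call across the stages (adjusted p = 0.0335) ended with the replicate number as a block (0.0534) and without either library of estrus or metestrus (0.0737 to 0.127). Across the stages Hk1 did not pass without estrus library 1 (0.0520) or 2 (0.0999), nor Hk2 without estrus library 1 (0.0735).

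Among genes of insulin signalling and transporter traffic, the 2 receptor substrates moved in opposite directions. Irs1 had 22.5 ± 1.44 CPM in estrus, its lowest stage, and 80.0 ± 3.80 CPM in metestrus, and rose to metestrus by 1.83 ± 0.12 (adjusted p = 0.000863). Irs2 peaked in estrus at 49.8 ± 5.64 CPM and fell to metestrus by 2.84 ± 0.48 (adjusted p = 0.00686). Txnip, which restrains glucose uptake and is induced by glucose, held 1395 and 1313 CPM in estrus, 186 and 174 CPM in metestrus, and 1157 and 279 CPM in diestrus. Between estrus and metestrus it fell by 2.91 ± 0.59 (adjusted p = 0.0119). Tbc1d1, a brake on GLUT4 traffic, fell there by 0.42 ± 0.10 (adjusted p = 0.0184). Across the stages Txnip and Tbc1d1 passed (adjusted p = 0.0270 and 0.0209), and ceased to pass when either library of proestrus, estrus or metestrus was left out (0.0566 to 0.115).

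**Figure D5:**
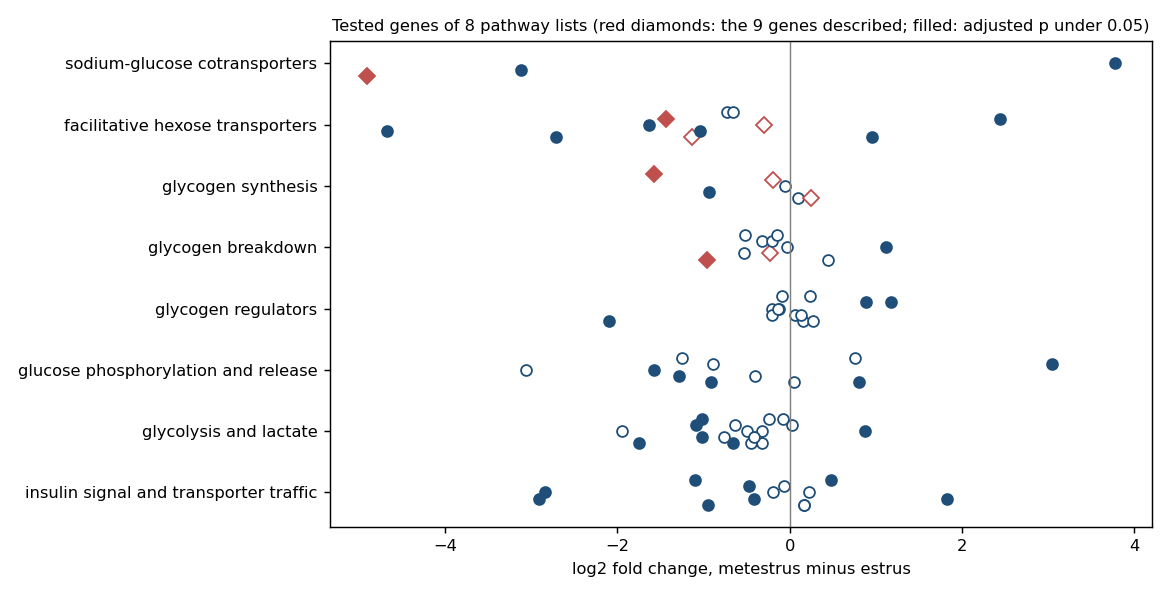
Log2 fold change from estrus to metestrus (horizontal axis, metestrus minus estrus) of 85 tested genes in 8 pathway lists (rows), with red diamonds for the 9 genes, blue circles for the others and filled marks for an adjusted p under 0.05. Among the others 23 fell and 11 rose, and 2 of those that fell are not drawn because their counts were 0 in metestrus.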

How the data were processed

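Uterine polyadenylated RNA was sequenced in 8 stranded libraries, 2 for each of 4 stages. The deposited values are raw counts per gene, made by the authors with STAR and featureCounts of Subread on GRCm38 (mm10), per the submitters' processing notes. Their versions, the annotation and how strand was set are not stated there. Library totals ran from 17863546 to 21896786 counts. Symbols, positions and exon lengths came from GENCODE M21, which holds 52007 of the 52308 identifiers.

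The filterByExpr rule of edgeR 4.0.16 (R 4.3.3) left 18114 genes. TMM factors lay between 0.898 and 1.11. Quasi-likelihood fits gave each stage its own mean over the 8 libraries and left 4 residual degrees of freedom. F tests, two-sided for pairs, covered all stages together and each of 6 pairs, at an adjusted p under 0.05. The SE is the size of the log2 fold change divided by the square root of F. The procedure was tested on simulated data.

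The 9 genes, the lists, the tests and the alternatives were chosen with earlier results of these data known. Named beside the 9 were, per pathway list, up to 4 other genes called across the stages, by smallest p, and the 3 nearest patterns of each changed gene (log2 CPM, prior count 2). Ugp2, G6pc and the overlapping genes Gm12868 and Ruvbl2 were named outside this rule. Alternatives were DESeq2 size factors, DESeq2 1.42.0, all genes with counts, genes with 1 CPM in 2 libraries, fits restricted to the 4 libraries of a pair, a replicate block, and fits that each lacked 1 library. Under them, single-gene calls in pairs of stages were followed for the 9 genes only.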

Additional observations from a re-analysis of the deposited data

How the results depend on the processing

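The direction of every call of the 9 genes held under the 14 alternatives run, and no called value reversed. Of 1197 single-gene values under alternatives, 1063 stayed on the same side of the threshold, 127 no longer passed and 7 newly passed. Among the 1063 were 29 cases, uncalled in both fits, whose sign changed. With 1 library left out, the genes of the 9 that changed across the stages numbered 3 to 5. From proestrus to estrus they numbered 0 to 2, from estrus to metestrus 3 to 4, from metestrus to diestrus 0 to 1 and from diestrus to proestrus 1 to 3. Between estrus and diestrus they numbered 2 to 4 and between metestrus and proestrus 0 to 4. Other pathway genes that changed across the stages numbered 18 to 50. Such fits have fewer samples, and a stage with a lone library is assumed to vary like the others. With only the 4 libraries of the pair, 2 of the 9 were called between estrus and diestrus and 1 between proestrus and diestrus. The labels do not say that a replicate number marks a shared animal or day. The differences between libraries 1 and 2 correlated across genes between stages at r from -0.09 to 0.14. Whether the numbers pair the samples is not known, since a shared day need not give a high correlation. With the replicate number as a block, 1 was called between estrus and proestrus and 2 between proestrus and diestrus. Across the stages 4 were called with the block. The fewest counts behind a library value of the 9 genes were 58.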

Other observations

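Liver forms of the pathway appeared in the libraries that held other liver transcripts. Gys2, the liver glycogen synthase, had 39 and 19 counts in estrus, 5 and 0 in proestrus, and 0 in all 4 libraries of metestrus and diestrus. G6pc, the glucose-6-phosphatase of liver and kidney, had 52 and 19 counts in estrus, 7 and 0 in proestrus, and 0 in the other 4 libraries. Slc2a2, which encodes GLUT2 of hepatocytes, had 43 and 29 counts in estrus, 7 and 1 in proestrus, and at most 2 elsewhere. The 6 liver markers, led by the albumin gene Alb, summed to 798 and 608 CPM in estrus, 106 and 1.34 CPM in proestrus, and at most 3.53 CPM in metestrus and diestrus. Alb alone had 650 and 477 CPM in estrus and 0 counts in metestrus library 1. The part of liver transcripts in the estrus levels of the 9 genes was not tested.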
